A study of Mus musculus with 8 samples.

Results

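The BCL2 family decides whether a cell keeps its mitochondria intact or dies by apoptosis, and 10 of its genes are described here across mononuclear blood cells of mice given fucoidan or saline. They were taken by name from the deposited gene count table, as 10 of its 56748 genes, by a rule that uses names only but was set with earlier results of these data known. All 10 were tested and each had at least 10 counts in every library, so a low-count filter decided nothing about them. The smallest count of a member in a library was 68, for Bcl2a1b, and the largest 21093, for Mcl1.

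Male wild-type C57BL/6J mice, 8 weeks old and on a standard diet, were gavaged every day over 1 month with saline (5 libraries) or with fucoidan at 200 mg per kg per day (3 libraries). The fucoidan, a polysaccharide that brown algae make with sulphate groups, came from Undaria pinnatifida. Poly(A) RNA of mononuclear cells, separated from heart-puncture blood on a density gradient, was sequenced from both ends. Each library is titled as a biological replicate, and the labels do not say whether blood of several mice was pooled. The treatment text of the fucoidan samples names saline, while their titles and characteristics name fucoidan, and the titles were followed.

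Proteins of the family share short sequence motifs called BH domains and act on the outer mitochondrial membrane. The survival proteins BCL-2, MCL-1, BCL-XL and A1 bind and restrain the effectors BAX and BAK, which otherwise form pores that release cytochrome c and start the caspases. A further class, the BH3-only proteins such as BIM, BID and PUMA, reports stress or loss of growth factors by occupying the survival proteins or by activating the effectors. In blood, MCL-1 is needed by many leukocytes, BCL-2 by naive lymphocytes, BCL-XL by platelets and maturing red cells, and BIM removes lymphocytes that lose cytokine or receive too strong an antigen signal.

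Libraries held 13061703 to 16334932 counts. The labelled cell type was checked on its markers: summed T cell, B cell, natural killer and monocyte markers were present in every library, each measured marker with at least 184 counts. Transcripts of neutrophils, red cells and platelets were present too, and those of red cells and platelets differed between groups. Haemoglobin genes took 3.51 to 8.48% of counts after saline and 13.5 to 24.1% after fucoidan, the highest in fucoidan replicate 3. Of all 14723 genes tested, 1341 were higher and 684 lower with fucoidan at an adjusted p under 0.05, and 1241 and 989 with upper-quartile scaling. Levels below are in CPM, the count scaled to library size with TMM factors (so a sum of CPM need not equal a share of raw counts), differences are log2 fold changes of fucoidan over saline from edgeR's quasi-likelihood test, and p-values are adjusted over all genes tested.

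Among the 10 family genes 2 rose with fucoidan, 0 fell and 8 did not pass edgeR's test. The risers were Bcl2l1, a survival gene, and Bcl2l11, a death gene. That is 20% of the family, where 13.8% of all tested genes were called, 9.11% as higher and 4.65% as lower. DESeq2 and limma-voom also called 2 higher and 0 lower, and at an unadjusted edgeR p under 0.05 there were 3 higher and 0 lower. The groups did not overlap for the same 2 genes, against 22.6% of all genes tested, so both shares lie near the background. The median log2 difference was 0.23 over the family and -0.04 over all genes tested. In the family 8 log2 differences were above 0 and 2 below, and over all genes 44.9% were above 0. The plot of fold changes shows the 2 called genes clear of zero. The interval of Bid, from 0.0069 to 0.51, lay just above zero as well, and these intervals are not adjusted for the number of genes.

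**Figure D1:**
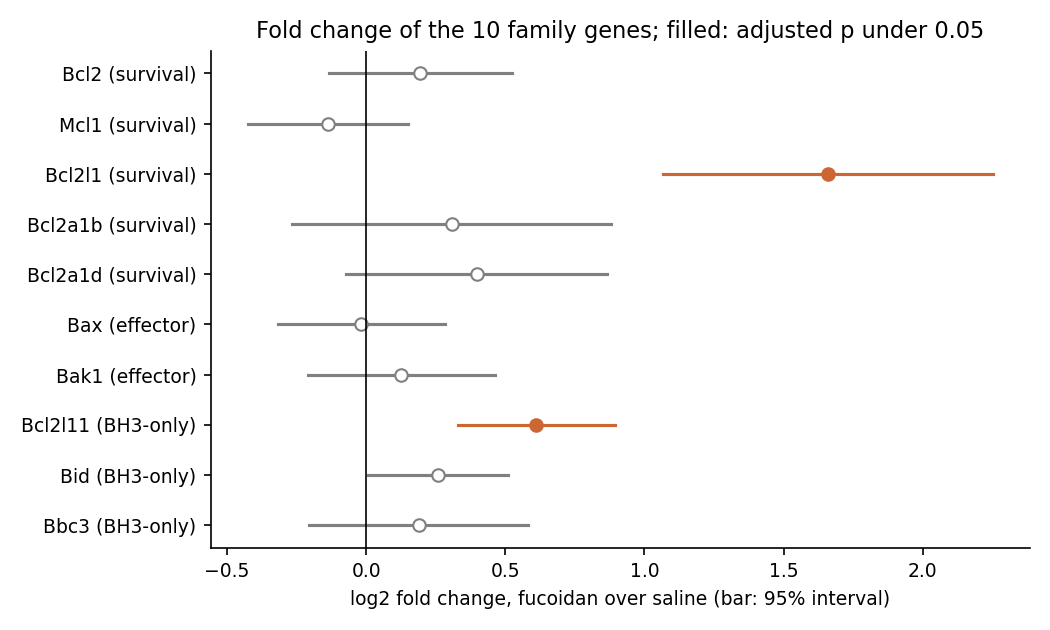
Log2 fold change of fucoidan over saline for the 10 family genes, with 95% intervals from edgeR's quasi-likelihood test (5 saline and 3 fucoidan libraries); filled points have an adjusted p under 0.05. Bcl2l1 at 1.66 and Bcl2l11 at 0.61 are filled, and the others lie between -0.14 and 0.40.

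Bcl2l1 encodes BCL-XL, the survival protein that sets how long platelets live and that maturing red cells need. Its transcript (ENSMUSG00000007659, GRCm39 chromosome 2, 152622588 to 152673648, minus strand) stood at 68.1, 60.4, 103, 57.4 and 49.3 CPM in saline replicates 1 to 5. In fucoidan replicates 1 to 3 it stood at 158, 159 and 324 CPM. All 3 fucoidan libraries lay above every saline library, with fucoidan replicate 3 the highest and saline replicate 3 the nearest of the controls. Its mean was 67.6 ± 20.8 CPM after saline (SD, n = 5) and, after fucoidan, 214 ± 95.8 CPM (SD, n = 3), which is 3.16-fold higher (log2 1.66, SE 0.269, 95% interval 1.07 to 2.25, edgeR adjusted p = 0.00406). This difference lay above that of 98.5% of all genes tested. Without fucoidan replicate 3 it was log2 1.24 (adjusted p = 0.0153). Counts are per gene, so the long survival form and the short death form of the spliced transcript are counted together.

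Red cell and platelet markers were, like Bcl2l1, higher after fucoidan. Of 12 erythroid markers 10 were tested and all 10 rose, with a median log2 difference of 2.32. Ahsp was not matched by name, and Klf1 had 1 to 10 counts per library. The summed erythroid markers ran from 31749 to 87830 CPM after saline and from 153552 to 367319 CPM after fucoidan. Of 10 platelet markers 9 were tested and all 9 rose, with a median of 1.58, and Gp1bb had at most 4 counts in a library. Their sum ran from 2145 to 4477 CPM after saline and from 6350 to 13409 CPM after fucoidan. Within the saline libraries, replicate 3 was highest and replicate 5 lowest for Bcl2l1, for the erythroid sum and for the platelet sum. From saline replicate 1 to 2 to 4 Bcl2l1 went down, while the platelet sum went up, at 2822, 2871 and 3134 CPM. Fucoidan replicate 1 stood above fucoidan replicate 2 in both sums, while Bcl2l1 was 158 and 159 CPM. Per 100 CPM of platelet markers there were 1.83 to 2.41 CPM of Bcl2l1 after saline and 2.10 to 2.51 after fucoidan, ranges that overlap. Per 1000 CPM of erythroid markers there were 1.17 to 1.55 CPM of Bcl2l1 after saline and 0.883 to 1.04 after fucoidan, so Bcl2l1 rose less than the erythroid sum did. In bulk samples more cells of a type and more RNA per cell cannot be told apart. The part of red cells and platelets in the rise was not tested.

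**Figure D2:**
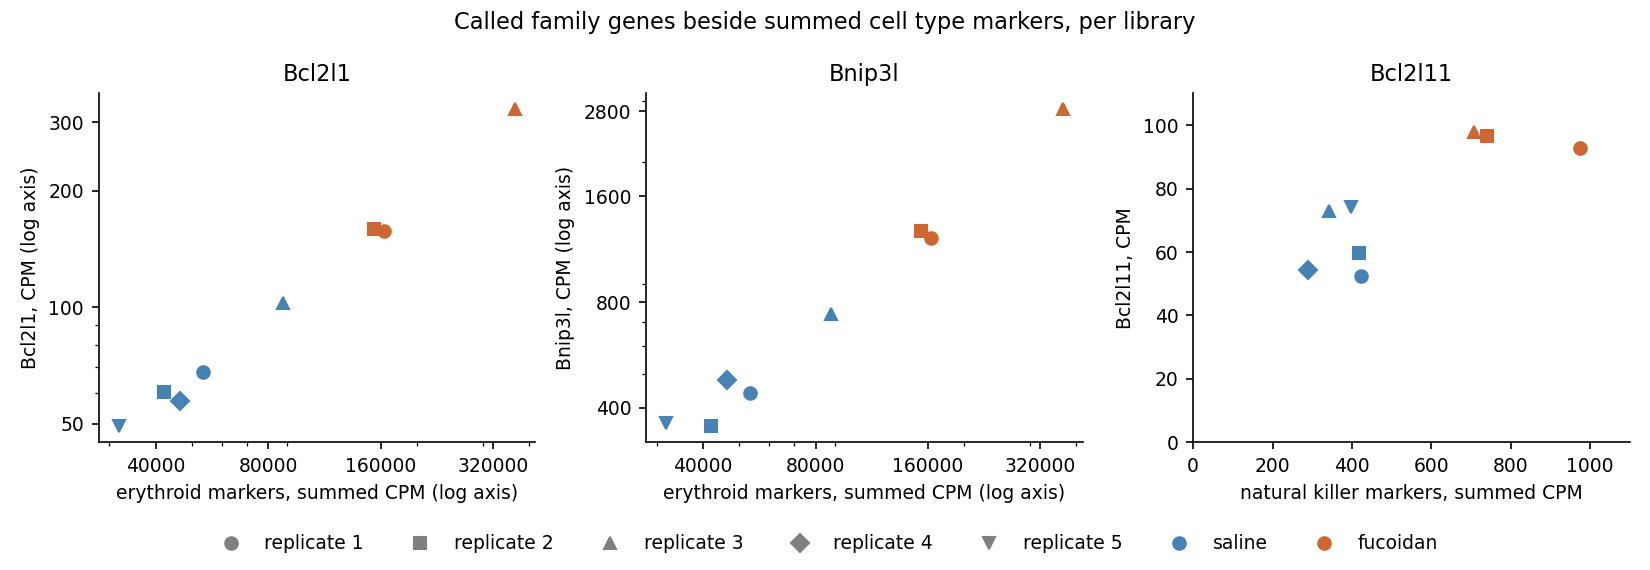
Level of Bcl2l1 and Bnip3l (CPM) against summed erythroid markers (CPM), both on log axes, and of Bcl2l11 against summed natural killer markers on linear axes; each point is a library, shaped by replicate number and coloured by group. Bcl2l1 runs from 49.3 CPM in saline replicate 5 to 324 CPM in fucoidan replicate 3, the libraries with the lowest and highest erythroid sums.

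RefSeq places 3 starts for Bcl2l1, and the promoter of 1 of them held letters of the GATA motif, which erythroid and megakaryocyte transcription factors read. The window, from 250 bases before to 50 bases after the start (GRCm38.p6, chr2:152828440-152828739, minus strand), is shown because Bcl2l1 was the largest riser of the family. Capitals mark AGATAA or AGATAG, and likewise TGATAA or TGATAG, on either strand.
Bcl2l1: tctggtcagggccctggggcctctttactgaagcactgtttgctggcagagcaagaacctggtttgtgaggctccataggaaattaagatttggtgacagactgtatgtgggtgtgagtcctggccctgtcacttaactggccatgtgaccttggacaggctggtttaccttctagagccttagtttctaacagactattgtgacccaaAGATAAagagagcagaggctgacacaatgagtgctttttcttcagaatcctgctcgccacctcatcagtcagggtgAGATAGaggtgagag
The matches begin at -41 and 35 relative to the annotated start. Such letters occur in 29.8% of the 32851 mouse promoters of this length in the table and in 3 of the 15 promoters of the family, those of Bcl2l1, Bid and Bcl2a1b. A match of letters describes the window and shows no binding. The STAT motif TTCNNNGAA, present in 8.30% of all promoters, was in 0 of the 15.

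Mcl1 encodes the short-lived survival protein MCL-1, on which neutrophils, lymphocytes and many other leukocytes depend. It was by far the most abundant family transcript (ENSMUSG00000038612, chromosome 3, 95566099 to 95570487). The saline libraries held 1149, 1187, 961, 941 and 1095 CPM and the fucoidan libraries 1098, 962 and 851 CPM. The groups overlapped, fucoidan replicate 3 being the lowest of all. The log2 difference was -0.14 (SE 0.131, 95% interval -0.42 to 0.15, edgeR adjusted p = 0.546), an interval that leaves out a change of log2 0.5 in either direction.

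Bcl2, the founding survival gene of the family (ENSMUSG00000057329, chromosome 1, 106465908 to 106642004), keeps naive lymphocytes alive. It stood at 103, 164, 125, 125 and 158 CPM after saline and at 148, 168 and 148 CPM after fucoidan. The fucoidan values lay within or just above the saline range (log2 0.20, SE 0.149, 95% interval -0.13 to 0.52, edgeR adjusted p = 0.435). Of the 10 B cell markers 8 fell, and their sum ran from 7249 to 9395 CPM after saline and from 4641 to 6520 CPM after fucoidan. The T cell marker sum ran from 897 to 1013 CPM and from 1089 to 1386 CPM. Neither pair of ranges overlaps, the B cell sum being lower and the T cell sum higher after fucoidan, and their part in the Bcl2 level was not tested.

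A1 is an inducible survival protein of activated lymphocytes and myeloid cells. In the mouse it is made from near-identical gene copies on chromosome 9, of which Bcl2a1b and Bcl2a1d are members here and Bcl2a1a is a further copy. The coding sequences of Bcl2a1b and Bcl2a1d, 519 bases each, differ at 6 bases and are 98.8% identical. Counted from 1 at the start codon, with the base of Bcl2a1b first, these are G4T, T48C, A94C, G312A, C381G and T490A. Bcl2a1a differs from Bcl2a1b at 11 bases and from Bcl2a1d at 7. The first 60 coding bases are shown because no other stretch of that length holds more differences; capitals mark the 6 positions where the 3 copies differ.
Bcl2a1a: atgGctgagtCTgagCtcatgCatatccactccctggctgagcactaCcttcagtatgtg
Bcl2a1b: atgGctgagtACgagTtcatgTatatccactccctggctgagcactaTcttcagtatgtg
Bcl2a1d: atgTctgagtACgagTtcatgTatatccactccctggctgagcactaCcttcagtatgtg
Of the 150-base stretches of the Bcl2a1b transcript, the length of a read, 14.2% occur letter for letter in another copy, and 30.3% of those of Bcl2a1d. The sources used here do not say how such reads were counted, so the split of counts among copies is uncertain.

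Bcl2a1d (ENSMUSG00000099974, 88605338 to 88613967) stood at 14.7, 16.8, 8.87, 9.54 and 14.9 CPM after saline and at 19.4, 16.2 and 15.5 CPM after fucoidan. The groups overlapped only through saline replicate 2 (log2 0.40, SE 0.213, 95% interval -0.07 to 0.86, edgeR adjusted p = 0.254). Bcl2a1b (ENSMUSG00000089929, 89081262 to 89089880) stood at 4.92, 8.78, 4.71, 3.93 and 6.25 CPM after saline and at 5.61, 8.02 and 7.70 CPM after fucoidan, within the saline range (log2 0.31, SE 0.261, 95% interval -0.27 to 0.88, edgeR adjusted p = 0.488). A sum over the 3 copies does not depend on the split, but any shared reads left out of the counts would be missing from it. Summed so, the level was 21.3, 27.3, 15.3, 14.7 and 22.8 CPM after saline. After fucoidan the sum was 26.6, 26.6 and 26.4 CPM. The fucoidan values lay close together and only saline replicate 2 was higher, and the summed difference did not pass (log2 0.38, SE 0.189, 95% interval -0.03 to 0.80, edgeR adjusted p = 0.212).

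Neither effector gene passed the test. Bax (ENSMUSG00000003873, chromosome 7, 45111121 to 45116322) encodes the effector that waits in the cytosol and moves to mitochondria on activation. It stood at 51.3, 54.3, 50.7, 42.2 and 40.9 CPM after saline and 51.5, 38.3 and 52.2 CPM after fucoidan (log2 -0.02, 95% interval -0.32 to 0.28, edgeR adjusted p = 0.952). Fucoidan replicate 2 was the lowest of all libraries and the other fucoidan values lay within the saline range. Bak1 (ENSMUSG00000057789, chromosome 17, 27238784 to 27247983) encodes BAK, which sits in the mitochondrial membrane and, in platelets, is held in check by BCL-XL. Its levels were 51.5, 33.3, 34.7, 36.3 and 39.0 CPM after saline and 49.6, 37.9 and 39.9 CPM after fucoidan, fully within the saline range. Its log2 difference was 0.13 (95% interval -0.21 to 0.46, edgeR adjusted p = 0.645). For both genes the interval leaves out a change of log2 0.5 in either direction.

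Bcl2l11 encodes BIM, the BH3-only protein that kills lymphocytes when survival cytokines run out. It was the other riser of the family (ENSMUSG00000027381, chromosome 2, 127967958 to 128004467). The saline libraries held 52.3, 59.6, 72.9, 54.3 and 74.3 CPM. The fucoidan libraries held 92.9, 96.7 and 97.7 CPM, all above every saline library and close to each other. Saline libraries averaged 62.7 ± 10.3 CPM (SD, n = 5) and fucoidan libraries 95.8 ± 2.54 CPM (SD, n = 3), 1.53-fold more (log2 0.61, SE 0.129, 95% interval 0.33 to 0.89, edgeR adjusted p = 0.0103). Without fucoidan replicate 3 the difference was 0.60 (adjusted p = 0.0458). Transcripts for the longer and shorter forms of BIM are counted together.

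Natural killer and T cell markers were, like Bcl2l11, higher after fucoidan. All 10 natural killer markers tested rose, with a median log2 difference of 1.10 and summed levels of 289 to 423 CPM after saline and 707 to 973 CPM after fucoidan. T cell markers had a median log2 difference of 0.34, and 2 of 10 passed edgeR's test, both higher, where DESeq2 and limma-voom each called 5 higher. Of 10 monocyte markers 1 rose and 1 fell. Of 11 neutrophil markers edgeR called 0, with 0 at an unadjusted p under 0.05, 0 by DESeq2 and 3 higher by limma-voom. Summed neutrophil markers ran from 952 to 1995 CPM after saline and from 993 to 1253 CPM after fucoidan, the smallest count of a marker being 2. Per 100 CPM of natural killer markers there were 12.4 to 21.2 CPM of Bcl2l11 after saline and 9.54 to 13.8 after fucoidan, ranges that overlap. Fucoidan replicate 1 had the highest natural killer sum and the lowest Bcl2l11 of its group. Among the controls, saline replicate 1 had the lowest Bcl2l11 and the highest sum, 423 CPM, next to 418 CPM in saline replicate 2. The T cell sum was 1089, 1101 and 1386 CPM in fucoidan replicates 1 to 3, the same order as Bcl2l11. In the saline libraries it was highest in replicate 2, where Bcl2l11 was highest in replicate 5. The Bcl2l11 values of the fucoidan libraries lay close together, at 92.9 to 97.7 CPM, so their order says little. The part of these cells in the difference between groups was not tested.

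Forkhead factors of the FOXO class, which are active when growth factor signals fade, are known to raise Bcl2l11. Of its 2 RefSeq promoters, the first (GRCm38.p6, chr2:128125788-128126087, plus strand) held the letters of their motif, and it is shown because Bcl2l11 was the death gene that rose. Capitals mark TGTTTAC, and likewise TATTTAC, on either strand.
Bcl2l11: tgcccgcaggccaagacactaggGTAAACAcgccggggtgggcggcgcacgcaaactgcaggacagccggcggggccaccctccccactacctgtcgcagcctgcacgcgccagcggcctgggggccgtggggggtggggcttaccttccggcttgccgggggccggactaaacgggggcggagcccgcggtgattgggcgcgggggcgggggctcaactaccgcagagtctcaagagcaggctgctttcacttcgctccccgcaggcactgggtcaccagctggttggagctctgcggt
The match begins at -227 relative to the annotated start. These letters occur in 6.54% of all promoters in the table and in 2 of the 15 of the family, the other being a promoter of Bbc3, which did not pass the test. The FOXO genes Foxo1 and Foxo3 had log2 differences of -0.28 and 0.32 and were not called (edgeR adjusted p = 0.0962 and 0.162). Foxo1 was called lower by limma-voom (log2 -0.28, adjusted p = 0.0477).

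Bid and Bbc3, the other BH3-only genes, did not pass. Bid (ENSMUSG00000004446, chromosome 6, 120868891 to 120893814) encodes the protein that caspase-8 cuts to link death receptors to mitochondria. It stood at 47.2, 41.0, 43.5, 39.1 and 37.8 CPM after saline and at 45.8, 46.3 and 57.9 CPM after fucoidan. Only fucoidan replicate 3 lay above the saline range (log2 0.26, SE 0.114, 95% interval 0.0069 to 0.51, edgeR adjusted p = 0.167). Bid overlaps Bcl2l13 on the opposite strand, a gene with 508 to 1032 counts per library, and the sources used here do not state whether counting used strand, so its level is uncertain. Bbc3 encodes PUMA, a direct target of p53 (ENSMUSG00000002083, chromosome 7, 16042318 to 16052130). Its levels were 19.6, 35.4, 28.2, 23.9 and 23.2 CPM after saline and 28.1, 26.8 and 34.3 CPM after fucoidan, all within the saline range (log2 0.19, SE 0.178, 95% interval -0.20 to 0.58, edgeR adjusted p = 0.541).

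**Figure D3:**
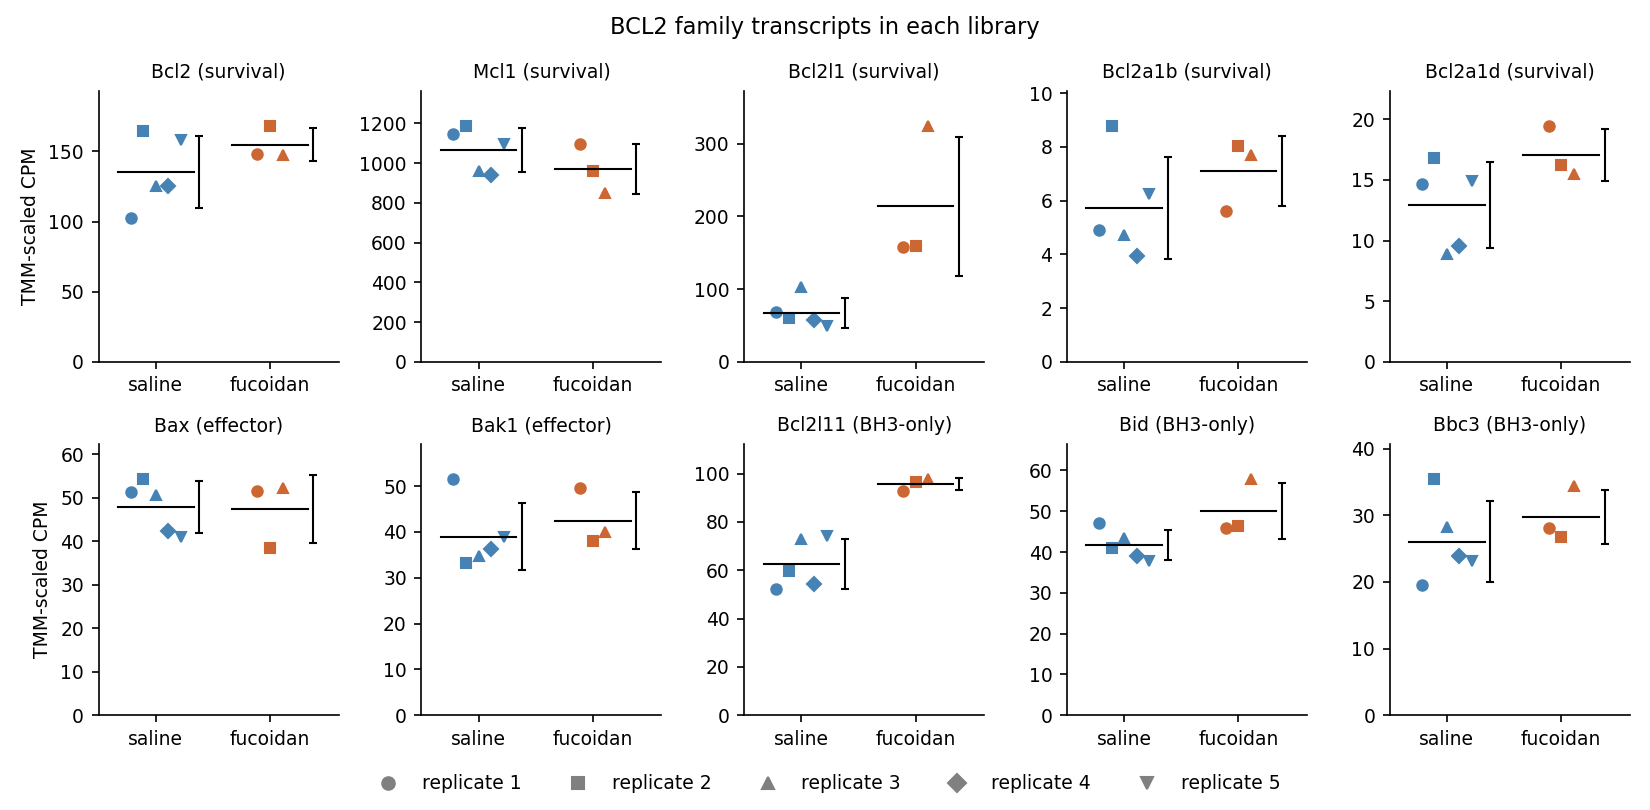
TMM-scaled CPM of each family gene in every library, by group, with axes from 0; horizontal lines are group means, vertical bars the SD (5 saline and 3 fucoidan libraries), and marker shapes the replicate numbers. The groups are apart for Bcl2l1 (49.3 to 103 against 158 to 324 CPM) and Bcl2l11 (52.3 to 74.3 against 92.9 to 97.7 CPM), and overlap for the other 8 genes.

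Levels were compared between family genes per kilobase of the gene length in the deposited table. That length is 1 value per gene and need not be that of the transcript made in these cells. Orders, shares and ratios between genes depend on it. In plain CPM the saline mean of Bcl2l11, 62.7, stood above those of Bax, 47.9, and Bak1, 39.0. After saline the order by mean level was Mcl1, Bax, Bak1, Bcl2a1d, Bcl2, Bcl2l1, Bbc3, Bid, Bcl2l11 and Bcl2a1b. Mcl1 stood at 312 ± 32.4 CPM per kilobase (SD, n = 5), Bax at 30.4 ± 3.76 and Bak1 at 16.2 ± 3.05. Mcl1, Bax and Bak1 kept that order in all 5 saline libraries with no overlap between neighbours. From Bak1 down to Bid each gene overlapped the next in the saline libraries, so their order there is not settled. After fucoidan Bcl2l1 moved from sixth to second place, at 46.6 ± 20.9 CPM per kilobase (SD, n = 3) against 14.7 ± 4.54 after saline. In each of the 3 fucoidan libraries it stood above Bax, and in each of the 5 saline libraries below it.

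**Figure D4:**
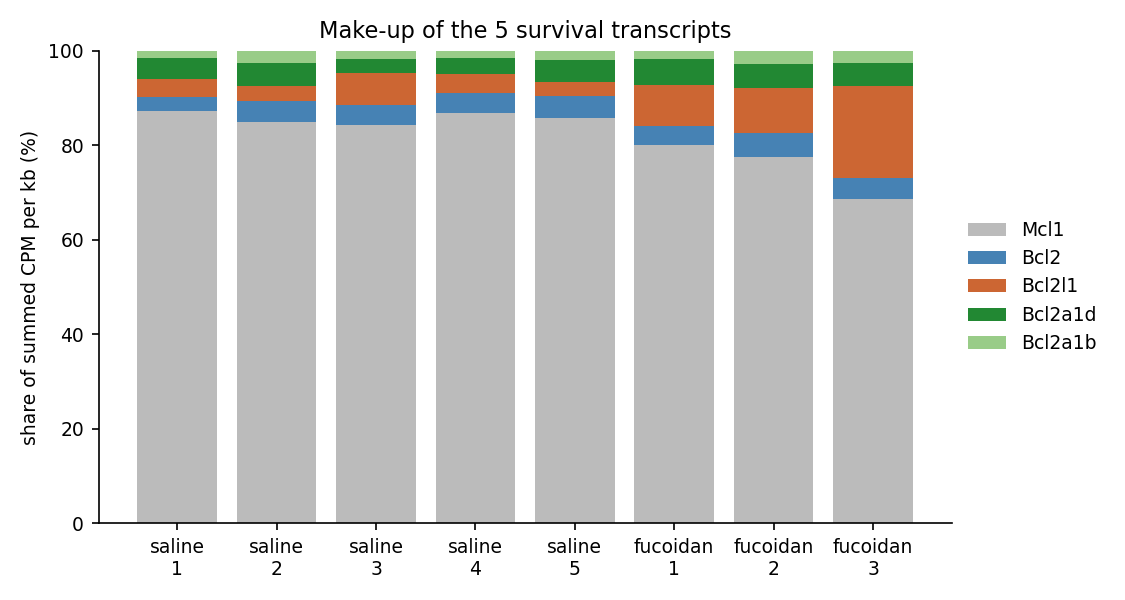
Share of each survival transcript in the summed CPM per kilobase of the 5 survival genes, 1 bar per library. Mcl1 takes 84.4 to 87.3% in the saline libraries and 68.5 to 80.1% in the fucoidan libraries, while Bcl2l1 takes 2.88 to 6.73% and 8.56 to 19.5%.

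The make-up of the survival transcripts follows from these values, and it is a description without a test. After saline Mcl1 took 85.8 ± 1.20% of the summed survival level (SD, n = 5), and after fucoidan 75.4 ± 6.05% (SD, n = 3). The share of Bcl2l1 was 4.13 ± 1.52% after saline and 12.5 ± 6.03% after fucoidan, again without overlap and highest in fucoidan replicate 3. The total of the 5 survival genes overlapped between groups, at 317 to 409 CPM per kilobase after saline and 363 to 401 after fucoidan. The total of the 5 death genes was 70.9 to 83.9 and 77.8 to 94.3 CPM per kilobase. The ratio of Mcl1 to Bcl2l11, the survival protein and the death protein that bind each other, was 31.0 to 51.6 after saline and 20.5 to 27.8 after fucoidan. The ratio of Bcl2l1 to Bcl2l11, whose proteins also bind each other, lay the other way, at 1.16 to 2.47 after saline and 2.88 to 5.81 after fucoidan. Neither ratio overlapped between groups. These are ratios of bulk RNA, whose transcripts may come from different cells, so they show no balance of proteins within a cell. The ratio of Bcl2 to Bax overlapped, at 0.344 to 0.665 and 0.487 to 0.755.

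The genes with the most similar profiles were sought among 8406 protein-coding genes with a mean of at least 10 CPM, by the root mean square distance between centred log2 CPM over the 8 libraries. For Bcl2l1 these were Ybx3, Fam214b and Adgrg1, at distances of 0.080, 0.089 and 0.097, where the own spread of Bcl2l1 was 0.885. For Bcl2l11, with a spread of 0.346, they were Pdcd4, Akna and Runx3, at 0.059, 0.062 and 0.080. The nearest to Bcl2 was Helz (0.039), to Bid Tgfb1 (0.030), to Bak1 Pglyrp1 (0.026) and to Mcl1 Ctsl (0.056). Spred2 was nearest to Bcl2a1b (0.092), Sulf2 to Bcl2a1d (0.126), Npm3 to Bax (0.088) and Ifrd1 to Bbc3 (0.098). With 8 libraries and 8406 genes compared, close profiles arise readily, and nothing about shared control is read from them.

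Of 15 further family genes 11 were tested, and 1 passed edgeR's test, with a median log2 difference of -0.20. It rose and was Bnip3l, which encodes NIX, the protein that marks mitochondria for removal as reticulocytes mature. It stood at 442, 354, 737, 479 and 361 CPM after saline and at 1215, 1277 and 2834 CPM after fucoidan, 3.74-fold higher (log2 1.90, SE 0.302, edgeR adjusted p = 0.00396). As with Bcl2l1, saline replicate 3 and fucoidan replicate 3 were the highest of their groups, as they were in the erythroid and platelet sums. Per 1000 CPM of erythroid markers there were 8.28 to 11.4 CPM of Bnip3l after saline and 7.43 to 8.32 after fucoidan, ranges that overlap. The part of red cells and platelets in the Bnip3l difference was not tested. In the 8 libraries there were 5.86 to 8.74 CPM of Bnip3l for each CPM of Bcl2l1. When the replicate numbers were blocked Bmf, a BH3-only gene, fell as well (log2 -0.49, edgeR adjusted p = 0.0194), where the unblocked difference was -0.26 (adjusted p = 0.432). Bcl2l10, Bok, Hrk and Bcl2l15 had at most 4 counts in any library and were not tested.

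Downstream of the mitochondria, among 14 genes of the apoptosome, the caspases and their inhibitors 2 rose and 1 fell. Xiap, an inhibitor of caspases, rose by log2 0.38 (edgeR adjusted p = 0.0300). Birc3, an inhibitor of apoptosis protein induced by NF-kB, fell, from 261 ± 34.5 CPM in saline libraries (SD, n = 5) to 173 ± 15.8 CPM in fucoidan libraries (SD, n = 3), a log2 difference of -0.60 (edgeR adjusted p = 0.0116). Apaf1, Cycs and Casp9, the parts of the apoptosome, had log2 differences of -0.04, -0.07 and -0.20 and were not called. Without fucoidan replicate 3 neither Xiap nor Birc3 passed edgeR's test, at adjusted p = 0.0972 and 0.0620. Xiap also missed without saline replicate 3, 4 or 5 or fucoidan replicate 2 (adjusted p = 0.0615, 0.0743, 0.0519 and 0.134). It missed too with upper-quartile factors (0.0549) and with no filter on low counts (0.0572).

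In the death receptor pathway 1 of 10 genes passed edgeR's test, and it rose. It was Fasl, the ligand that cytotoxic lymphocytes use to kill, with 14.4 ± 3.63 CPM in saline libraries (SD, n = 5) and 25.0 ± 3.63 CPM in fucoidan libraries (SD, n = 3), at log2 0.79 (edgeR adjusted p = 0.0221). Natural killer markers were also higher after fucoidan, and their part in the Fasl difference was not tested. The call was missed when the replicate numbers were blocked (adjusted p = 0.0502), without saline replicate 4 (0.0504) and without fucoidan replicate 3 (0.108). Its receptor gene Fas had a log2 difference of 0.27 (adjusted p = 0.215). Cflar and Ripk1 did not pass edgeR's main test. Both were called higher by DESeq2 (adjusted p = 0.0241 and 0.0397) and by limma-voom (0.0333 and 0.0328). In edgeR, Cflar also passed with median-of-ratios factors (0.0483), without haemoglobin genes (0.0496) and without saline replicate 2 (0.0240).

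Among p53 and its targets 13 of 14 genes were tested, and 1 passed, Eda2r having 0 counts throughout. That gene, Phlda3, a repressor of AKT signalling, rose, with 4.08 ± 1.40 CPM in saline libraries (SD, n = 5) and 10.6 ± 5.79 CPM in fucoidan libraries (SD, n = 3), at log2 1.36 (edgeR adjusted p = 0.0233). Without fucoidan replicate 3 it was 0.86 (adjusted p = 0.147), and it also missed without saline replicate 1, 4 or 5 (0.0536, 0.0604 and 0.0538). When the replicate numbers were blocked Zmat3 rose too, at log2 0.59 (adjusted p = 0.0482), where the unblocked value was 0.48 (0.0751). Trp53, Mdm2 and Cdkn1a were not called, with log2 differences of -0.23, 0.06 and -0.35.

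Of 11 regulators of the family's proteins and genes 2 passed edgeR's test, and both rose. Under limma-voom Foxo1 and Stat5a were called lower beside them, and with upper-quartile factors Stat5a was (adjusted p = 0.0358). Il7r, the interleukin 7 receptor chain through which lymphocytes maintain BCL-2, had 156 ± 17.0 CPM in saline libraries (SD, n = 5) and 265 ± 46.6 CPM in fucoidan libraries (SD, n = 3), at log2 0.77 (edgeR adjusted p = 0.00482). Il2rb, the receptor chain shared by interleukins 2 and 15, went from 305 ± 96.7 to 718 ± 32.8 CPM, at log2 1.23 (edgeR adjusted p = 0.00521). Natural killer cells are rich in Il2rb. Their markers were also higher after fucoidan, and their part in the Il2rb difference was not tested. Huwe1 and Usp9x, which encode a ligase that tags MCL-1 for destruction and an enzyme that spares it, had log2 differences of -0.03 and 0.07 and were not called.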

How the data were processed

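The authors deposited raw whole-number counts per gene with names, lengths and coordinates. Per the submitters' processing notes, cutadapt 4.0, Trimmomatic 0.39 and HISAT2 2.2.1 were used on GRCm39 (mm39). No source used here states the counting program, the annotation release or whether strand was used. In R 4.3.3, low-count genes were removed by filterByExpr of edgeR 4.0.16, libraries were scaled with TMM factors and genes were tested with the robust quasi-likelihood test, and p-values were adjusted by Benjamini-Hochberg over 14723 genes. Standard errors were derived from the log2 fold change and the F statistic. Alternatives were median-of-ratios and upper-quartile factors, haemoglobin genes left out of library sizes, DESeq2 1.42.0, limma-voom (limma 3.58.1), other filters, a replicate block and leaving out each library. The procedure was tested on simulated data. Within each group, no pair of libraries agreed within sampling noise.

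With group means removed, libraries sharing a replicate number correlated at 0.177, 0.233 and 0.144 over genes. Pairs with unlike numbers ran from -0.261 to 0.144, so whether the numbers mark real pairs is not settled. The main test did not use the numbers. A replicate block was run as an alternative, and its values are printed where a call changed. The labels give 1 batch for all libraries. The p-values measure the spread between libraries titled as biological replicates. The family genes and lists were chosen with earlier results of these data known. Genes named are the family, up to 4 called genes of each pathway list by smallest p (1 of them is not reported here), and the 3 nearest profiles, of which all 3 are given for the called family genes and the nearest for the others. Bmf, Zmat3, Cflar and Ripk1 were named after their values were seen, as were Foxo1, Foxo3 and other uncalled pathway genes given for contrast. Promoters are from RefSeq (GRCm38.p6; all 10 family genes matched) and coding sequences from GENCODE M21.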

Additional observations from a re-analysis of the deposited data

Results flagged for a closer look

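Summed monocyte markers were 6590 CPM in saline replicate 1, far from the other saline libraries at 3647 to 4441 CPM. That gap exceeded the critical value for 5 samples, which chance exceeds in about 1 in 20 groups. The check was run on the saline libraries for every family gene, some further named genes and every marker sum. A single flag among so many can arise by chance. No family gene was flagged in this way.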

How the results depend on the processing

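Bcl2l1 and Bcl2l11 were called higher under all 16 alternatives, at log2 1.24 to 1.86 and 0.55 to 0.68, and the other 8 family genes under none. Bax, at -0.018 in the main test, changed sign to 0.00305 with median-of-ratios factors, 0.0030 with DESeq2 and 0.0288 with limma-voom. It ran from -0.0848 to 0.115 on leaving out a library and was -0.151 with the replicate block. Bak1 ran from -0.00152 to 0.248 on leaving out a library. The count of called genes over the whole table was 928 without fucoidan replicate 3, 1291 without saline replicate 4 and up to 2224 without saline replicate 1. Under the replicate block the totals were 1122 higher and 439 lower, 1561 together, with 2 further family genes in place of 1, 0 death receptor genes in place of 1 and 2 p53 genes in place of 1, and no family call changed. The death receptor count was 2 with median-of-ratios factors or without haemoglobin genes and 3 with DESeq2 or limma-voom. The p53 count was 2 with DESeq2, and that of regulators 4 with limma-voom (2 higher, 2 lower). On leaving out each library the counts were 1 to 2 for further family genes, 0 to 3 for the apoptosome and caspases, 0 to 2 for death receptor genes and 0 to 2 for p53 genes. The causes of these shifts were not tested. Depth limits Bcl2a1b most, with 68 to 156 counts.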
